A study of Mus musculus with 2 samples.

Results

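The interferon-stimulated genes described here are 41 mouse genes listed by symbol, of which 40 were found among the 32285 gene rows of each of 2 single-cell libraries. They fall into a type I-like set of 19 genes, such as Ifit1, Rsad2 and Isg15, a gamma-like set of 13, such as Gbp2, Igtp and Irf1, and a shared set of 9, such as Irf9, Stat2 and the Ifitm genes. All 13 gamma-like and 9 shared members matched a row, as did 18 of the type I-like members; Mx1 is not analysed here. The study profiled endothelial cells of mouse lymph nodes by 10x Genomics 3′ single-cell RNA sequencing. Each library mixed 4 tagged pools of cells, from the peripheral and the mesenteric nodes of wild-type (WT) and of Xbp1-knockout (KO) mice. Every mouse, WT included, had received tamoxifen, the drug that switches on an inducible Cre recombinase. Leukocytes had been depleted through CD45 and the endothelial cells sorted, after a digestion that the protocol describes for pooled peripheral nodes only. The labels used here do not give the Cre driver, the sex, the age or the number of animals in a pool, nor whether pools of 1 library share animals, so p-values measure only the spread between the 8 pools.

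Interferons are secreted proteins that switch cells into an antiviral state. Type I interferons, among them interferon beta, act through the receptor pair IFNAR1 and IFNAR2 and the kinases JAK1 and TYK2, and a complex that holds STAT2 and IRF9 then binds the interferon-stimulated response element (ISRE) in target promoters. Interferon gamma acts through IFNGR1 and IFNGR2, JAK1 and JAK2, and its target promoters often hold the gamma-activated site (GAS). The sets overlap, since most of these genes respond to either kind of interferon to some degree. Endothelial cells express both receptors; in lymph nodes they line the capillaries and arteries, the high endothelial venules through which lymphocytes enter, and the lymphatic sinuses, whose floor and ceiling face the node and its capsule.

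The promoters of 5 members are shown as examples of the elements through which interferons act: Isg15, Ifit1 and Rsad2, type I-like genes on which several results turn, and Gbp2 and Irf1 as gamma-like genes with an ISRE and a GAS match. Each runs from 250 bases before to 50 after the RefSeq start in the build GRCm38.p6, 5′ to 3′ on the gene's own strand, with matches to the motifs in capitals. Isg15 (chr4:156200769-156201068, minus strand) holds 3 overlapping ISRE matches, Ifit1 (chr19:34640639-34640938, plus strand) 2, and Rsad2 (chr12:26456403-26456702, minus strand) and Gbp2 (chr3:142620413-142620712, plus strand) 1 each. Irf1 (chr11:53769764-53770063, plus strand) holds 1 GAS match and no ISRE match.
Isg15: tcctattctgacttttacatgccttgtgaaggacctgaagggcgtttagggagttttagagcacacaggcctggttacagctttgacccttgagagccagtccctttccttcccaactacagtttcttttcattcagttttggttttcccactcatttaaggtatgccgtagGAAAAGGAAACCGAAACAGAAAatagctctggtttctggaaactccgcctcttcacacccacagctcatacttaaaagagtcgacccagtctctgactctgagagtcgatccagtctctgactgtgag
Ifit1: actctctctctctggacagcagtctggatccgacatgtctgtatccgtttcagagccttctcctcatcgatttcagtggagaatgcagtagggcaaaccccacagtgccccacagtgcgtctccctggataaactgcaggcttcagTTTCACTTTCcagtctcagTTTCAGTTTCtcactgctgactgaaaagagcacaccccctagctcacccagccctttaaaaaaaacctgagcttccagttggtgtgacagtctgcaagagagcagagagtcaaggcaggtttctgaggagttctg
Rsad2: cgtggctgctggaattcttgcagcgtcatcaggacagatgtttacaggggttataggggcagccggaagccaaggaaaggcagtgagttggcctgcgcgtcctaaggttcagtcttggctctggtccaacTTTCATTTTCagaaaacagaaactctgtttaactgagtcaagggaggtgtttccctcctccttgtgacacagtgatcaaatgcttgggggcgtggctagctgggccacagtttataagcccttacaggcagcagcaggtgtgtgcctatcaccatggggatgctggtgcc
Gbp2: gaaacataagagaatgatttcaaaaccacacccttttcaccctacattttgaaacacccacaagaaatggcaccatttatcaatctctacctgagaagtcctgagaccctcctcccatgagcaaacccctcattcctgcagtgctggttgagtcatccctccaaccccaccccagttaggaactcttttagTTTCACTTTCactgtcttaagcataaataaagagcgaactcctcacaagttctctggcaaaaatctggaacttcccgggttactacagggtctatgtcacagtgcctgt
Irf1: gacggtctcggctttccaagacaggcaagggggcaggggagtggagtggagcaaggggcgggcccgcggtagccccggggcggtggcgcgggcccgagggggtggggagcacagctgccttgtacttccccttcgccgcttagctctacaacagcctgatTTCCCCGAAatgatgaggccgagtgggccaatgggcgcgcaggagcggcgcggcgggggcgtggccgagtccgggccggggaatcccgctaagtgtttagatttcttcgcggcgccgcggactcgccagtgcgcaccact

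The ISRE was searched as GAAA, any NN, GAAA, and as its reverse complement TTTC, any NN, TTTC, and the GAS as TTC, any NNN, GAA, which reads the same on both strands. RefSeq promoters matched 31 members by symbol, with 35 start sites. An ISRE match was present in 54.3% of these 35 promoters and in 3.44% of all 32851 promoters of the same length. A GAS match was present in 28.6% of member promoters and in 8.3% of all. By set, ISRE matches were found in 46.7% of 15 type I-like, 66.7% of 12 gamma-like and 50% of 8 shared promoters; GAS matches were found in 13.3%, 50% and 25%. In 2 shared promoters an ISRE and a GAS match overlapped. A match describes the letters only and is not a measured binding site.

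Cells were grouped without the members among the clustering genes and named from marker genes. Of 9275 cells with 1 tag, 3823 were capillary-like, 777 arterial-like, 405 high endothelial-like and 3725 lymphatic-like; these 4 classes are called capillary, arterial, high endothelial and lymphatic here. Prox1, the lymphatic identity factor, had a median over pools of 675 CPM (UMIs for each 1000000 UMIs of the summed cells) in the lymphatic class. Glycam1, a high endothelial adhesion ligand, ranged from 22414 to 272943 CPM in the high endothelial class, and its median was 253 CPM in capillary and 3069 CPM in lymphatic cells; whether these counts came from free RNA was not tested. Marker lists of T cells, B cells, myeloid cells, NK cells and plasmacytoid dendritic cells summed to at most 25.9 CPM in any pool of the 4 classes. Sums of 1 pool and class held 187 to 833 cells in capillary, 46 to 175 in arterial, 3 to 122 in high endothelial and 65 to 1297 in lymphatic cells, and 16528 to 6555442 UMIs. The peripheral pools gave only 9, 29, 7 and 3 high endothelial cells. Xist, RNA of the inactive X chromosome, was high in both KO pools of library 1 and in both WT pools of library 2, so within a library the genotypes cannot be told apart from this difference.

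The members lie in several gene families, and some of their counts may be split with near copies. Ifit2, Ifit3, Ifit3b and Ifit1 lie side by side on chromosome 19, from chr19:34550694-34576419 for Ifit2 to chr19:34640871-34650009 for Ifit1 (GENCODE M21, GRCm38). Gbp2, Gbp3, Gbp5 and Gbp7 lie together on chromosome 3. Of the 31-base words in the last 500 transcript bases, where 3′ reads fall, 100% of those of Tgtp2 also occurred in Tgtp1, 88.3% of those of Gbp6 in other genes, mainly Gbp10, and 70% of those of Oas1a, mainly Oas1g. The share was 51.5% for Ifitm2, 28.3% for Ifitm3, 26.6% for Ifitm1 and 24.0% for Ifit3. Values of these 7 genes are uncertain for this reason.

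All 40 members were detected, and capillary cells expressed both main sets in every pool. The 18 type I-like members summed to 1761 to 2391 CPM in the 8 capillary pools (median 1956), and the 13 gamma-like members to 1312 to 1936 (median 1615). The corresponding medians were 2367 and 1476 CPM in arterial cells, 626 and 859 in high endothelial cells and 1786 and 1553 in lymphatic cells. In capillary cells, Isg15, a ubiquitin-like protein that is linked to other proteins, ranged from 323 to 464 CPM (median 356). Ifit1, which binds viral RNA that lacks host cap marks, ranged from 63.5 to 115 CPM (median 98.2), and Rsad2, which encodes viperin, an antiviral enzyme of the endoplasmic reticulum, from 326 to 437 CPM (median 409.6). Gbp4, a guanylate-binding GTPase, ranged from 92.9 to 145 CPM (median 136) and Iigp1, an immunity-related GTPase that attacks the vacuoles of parasites, from 293 to 515 CPM (median 389.8). Ifitm3, a membrane protein that blocks viral entry, ranged from 3182 to 4194 CPM (median 3879). Ifitm1 was near 0, with 0 to 5.29 CPM (median 2.23), and was the 1 member that did not pass the filter on low counts, so 39 were tested between classes.

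**Figure D1:**
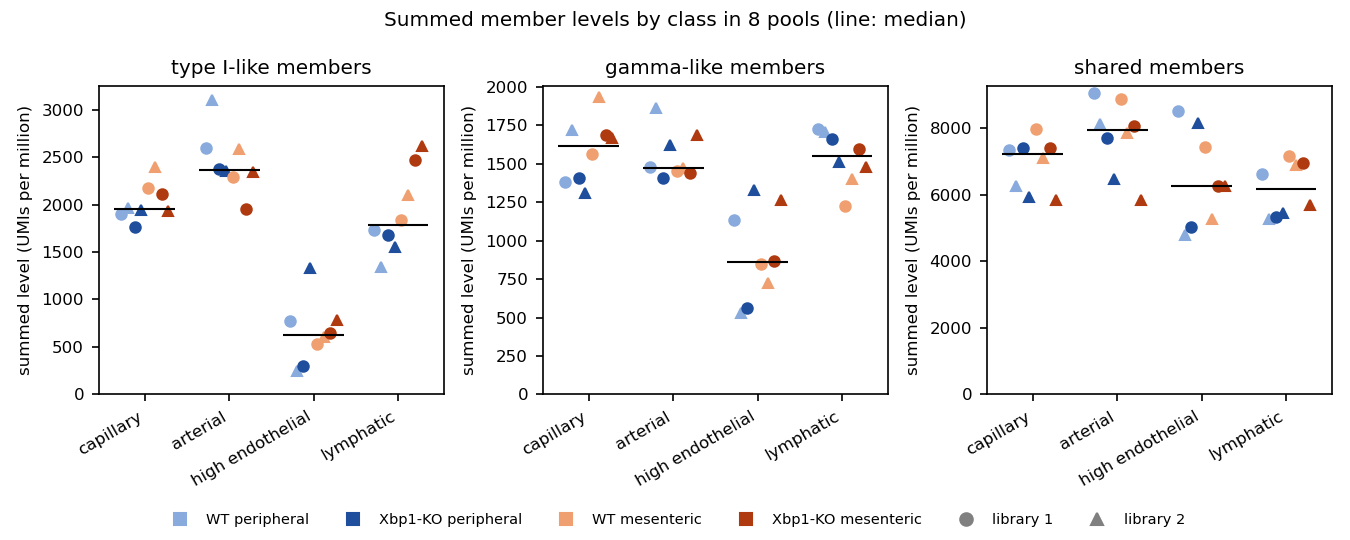
Summed level of the type I-like, gamma-like and shared members in UMIs for each 1000000 (CPM, vertical axis) in the 4 classes, with 1 point per pool and library and the median of the 8 pools as a line. The high endothelial pools reach at most 1331 CPM for the type I-like sum, where no capillary pool is below 1761.

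High endothelial cells held less of nearly every member than capillary cells of the same pools. Differences are log2 ratios from edgeR's quasi-likelihood test with the pool as a block, given with their SE and a Benjamini-Hochberg adjusted p over all 9480 genes tested, and "called" means an adjusted p under 0.05. Of 39 members, 34 were called, 33 lower and 1 higher, where 38.5% of all genes tested were called (21.1% lower and 17.4% higher). The type I-like members differed most, with 17 of 18 lower and a median difference of -1.37. Of the gamma-like members 11 of 13 were lower and 1 higher (median -0.80), and of the shared members 5 of 8 were lower (median -0.49). The median over all genes was -0.069. A venous-like cluster of 128 cells was not tested. Pooled over its cells, it held 718 CPM of type I-like and 1405 CPM of gamma-like members. In high endothelial cells these pooled values were 620 and 905 CPM. A low type I-like level was thus not particular to the high endothelial class.

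Rsad2 ranged from 0 to 21.1 CPM (median 2.32) in high endothelial cells, and the difference from capillary cells was -5.14 ± 0.29 (adjusted p = 6.64e-21). The fitted difference was the largest among the members, and no high endothelial pool came near a capillary pool. Rsad2 had only 36 UMIs in high endothelial cells, all in mesenteric pools, and every peripheral pool was at 0. The size of this fold therefore rests on few counts. Oas2, an oligoadenylate synthetase that activates RNase L, was counted with only 4 UMIs over all high endothelial cells, in 3 of the 8 pools. It was 19.8 to 45.7 CPM (median 26.5) in capillary cells and was called lower in high endothelial cells (adjusted p = 2.56e-11). With most high endothelial pools at 0, its fitted fold is not given. Ifit2 ranged from 0 to 17.8 CPM (median 6.96) against 44.3 to 83.3 CPM (median 67.1) in capillary cells, and Ifit1 from 0 to 50.7 CPM (median 15.5); their differences were -2.55 ± 0.31 and -1.75 ± 0.23. Both encode RNA-binding antiviral proteins, and their pools did not overlap between the classes. Ifit3 and Ifit3b, which encode partners of IFIT1, were lower too, at -1.78 ± 0.25 and -1.97 ± 0.30. Cmpk2, a mitochondrial nucleotide kinase, was at -2.19 ± 0.33 and Irf7, the transcription factor that amplifies type I interferon production, at -1.76 ± 0.17. The adjusted p of these 4 genes lay between 1.33e-12 and 2.19e-07. Isg15 ranged from 14.8 to 303 CPM (median 159) in high endothelial cells and was below every capillary pool in each of the 8 (difference -0.95 ± 0.17, adjusted p = 5.00e-06).

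Gbp6 was the exception, with 17.2 to 182 CPM (median 51.8) in high endothelial and 34.4 to 55.6 CPM (median 46.7) in capillary cells, a difference of 0.61 ± 0.16 (adjusted p = 0.00193). The high end of its range came from the pool of 3 cells, and the pools of both classes overlapped. Its call was lost without library 2 (0.55, adjusted p 0.0692) and with scaling by total counts alone (0.29, adjusted p 0.164). Dhx58, Gbp4, Bst2, Ifitm2 and Ifitm3 were not called. Bst2, which tethers budding virus to the membrane, had a median of 882 CPM in high endothelial and 1308 CPM in capillary cells. For some members, among them Isg15, Igtp, Gbp2, Tgtp2, Irf9 and Parp14, all 8 high endothelial pools lay below all 8 capillary pools. The share of all genes with such a gap is not given here, so this is a description only. The marker list of high endothelial cells took 25516 to 274466 CPM (median 88531) in the pools of that class. Scaling by totals alone gave 0 members higher and 35 lower, with the median of all genes moved by -0.31. Whether the marker genes account for that shift was not tested. With that scaling 940 genes were higher and 3789 lower, against 1645 and 2002. Of 14 genes of the dissociation response, early genes and heat shock genes that tissue digestion can induce, 13 were lower and 1 higher in high endothelial cells (median -1.35; Nr4a1 -3.59 ± 0.18), and their part in the result was not tested.

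The signalling genes did not fall with the members as a block. Of 8 interferon receptor and Janus kinase genes tested, 3 were higher and 3 lower in high endothelial cells, with Ifnar2, a type I receptor chain, at 0.98 ± 0.10 and Il10rb, a chain of the lambda interferon receptor, at -1.88 ± 0.16. Of 10 signal transducers and regulators 1 was higher and 4 lower (Irf8 0.72 ± 0.18, Irf2 -0.52 ± 0.13), and of 8 nucleic acid sensing genes 1 was higher and 1 lower (Tmem173, which encodes STING, 1.82 ± 0.12; Tbk1 -0.69 ± 0.23). Among 25 other interferon-induced genes 18 were lower and 2 higher, led by Lgals3bp at -1.99 ± 0.17 and Ifi203 at -1.26 ± 0.11. Antigen presentation genes went both ways, with 4 higher and 5 lower of 16, and Cd74, the invariant chain of MHC class II, was higher by 2.14 ± 0.17.

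In arterial cells few members were called against capillary cells, and most of those were type I-like and higher. Of 39 members, 8 were called, 6 higher and 2 lower, where 13.4% of all genes were called (6.85% higher and 6.57% lower). Scaling by totals alone gave 8 members higher and 2 lower, and over all genes 774 higher and 508 lower against 649 and 623. Isg15 ranged from 511 to 727 CPM (median 556) in arterial cells, above all 8 capillary pools, and the difference was 0.58 ± 0.14 (adjusted p = 0.00195). Irf7 was higher in 7 of 8 pools by 0.45 ± 0.12 (adjusted p = 0.00808), and Ifih1, a cytosolic sensor of double-stranded RNA, by 0.53 ± 0.15 (adjusted p = 0.00897). Oas2, Ifit3 and Gbp5, a guanylate-binding GTPase, were higher by 0.62 ± 0.20, 0.49 ± 0.17 and 0.46 ± 0.15, with adjusted p between 0.0301 and 0.0488. Rsad2 ranged from 214 to 356 CPM (median 255) in arterial cells and was lower (-0.65 ± 0.17, adjusted p = 0.00310), with pools that overlapped those of capillary cells. The capillary clusters differed in this gene. With cells pooled, it stood at 193 CPM in the cluster led by Aqp1, below the 265 CPM of arterial cells. In those led by Penk, Srarp and Aqp7 it stood at 538, 551 and 369 CPM. Iigp1 was lower in 7 of 8 pools (-0.51 ± 0.12, adjusted p = 0.00192).

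The median difference was 0.29 for type I-like, -0.025 for gamma-like and 0.12 for shared members, and -0.025 for all genes. Without library 1 only 1 of the 8 calls was kept, that of Irf7, and 4 members were called without library 2. With the members among the clustering genes 3 were called, and Isg15 was then not among them (0.15, adjusted p 0.627). Of the dissociation response genes 6 of 14 were lower in arterial cells (Egr1 -0.73 ± 0.16), and their part was not tested. Of the other interferon-induced genes, Ifi27l2a was higher in arterial cells by 1.71 ± 0.18 and Cxcl9, a chemokine that attracts T cells, was at -1.85 ± 0.35.

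In lymphatic cells the members went both ways. Of 39, 10 were higher and 22 lower than in capillary cells, in a comparison in which 59.9% of all genes were called (29.4% higher and 30.5% lower). Of the type I-like members 5 of 18 were higher and 10 lower, of the gamma-like 2 of 13 and 8, and of the shared 3 of 8 and 4; the medians were -0.89, -0.47 and -0.27 against -0.011 for all genes.

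The Ifit genes split in this comparison. Ifit2 ranged from 83.6 to 212 CPM (median 124) in lymphatic against 44.3 to 83.3 CPM (median 67.1) in capillary cells, with no overlap, and was higher by 0.85 ± 0.14 (adjusted p = 8.76e-07). Ifit1 ranged from 95.2 to 344 CPM (median 163) in lymphatic cells and was higher by 0.67 ± 0.13 (adjusted p = 1.91e-05). Their neighbours went the other way: Ifit3 ranged from 16.3 to 63.4 CPM (median 22.8) in lymphatic and 65.5 to 158 CPM (median 95.7) in capillary cells (difference -2.15 ± 0.16), and Ifit3b was at -2.58 ± 0.18. All lymphatic pools lay below all capillary pools for both. Isg15 ranged from 456 to 1160.2 CPM (median 679) in lymphatic cells, mostly above the capillary pools, with a difference of 0.75 ± 0.13 (adjusted p = 2.08e-06). Zbp1, a sensor of left-handed nucleic acid that can start cell death, ranged from 89.2 to 144 CPM (median 108) against 38.0 to 83.2 CPM (median 53.3), with no overlap (0.87 ± 0.11, adjusted p = 7.90e-10). Stat2, a subunit of the factor that binds the ISRE, was also above all capillary pools in all 8 (0.50 ± 0.11).

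Rsad2 ranged from 32.9 to 153 CPM (median 62.5) in lymphatic cells, below every capillary pool, a difference of -2.69 ± 0.16 (adjusted p = 3.78e-21). Oas2 was lower at -2.49 ± 0.18, Oas1a at -1.43 ± 0.17, Irf7 at -1.08 ± 0.11 and Cmpk2 at -1.02 ± 0.16, with adjusted p of at most 2.88e-07. Gbp4 was the gamma-like member with the largest difference: it ranged from 25.6 to 68.0 CPM (median 45.3) in lymphatic cells, below all capillary pools, with a difference of -1.55 ± 0.13. Of the higher members, Dhx58, an RNA helicase that regulates RNA sensing, was at 0.51 ± 0.16, Iigp1 at 0.36 ± 0.11 and Gbp6 at 0.28 ± 0.11. Without library 1 these 3 lost their call (Dhx58 0.28, adjusted p 0.383; Iigp1 0.31, adjusted p 0.152; Gbp6 0.37, adjusted p 0.0960), and Gbp6 did so without library 2 as well (0.27, adjusted p 0.140). Scaling by totals alone moved the median of all genes by 0.22 and gave 14 members higher and 18 lower; over all genes it gave 4060 higher and 1858 lower, against 2791 and 2891.

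**Figure D2:**
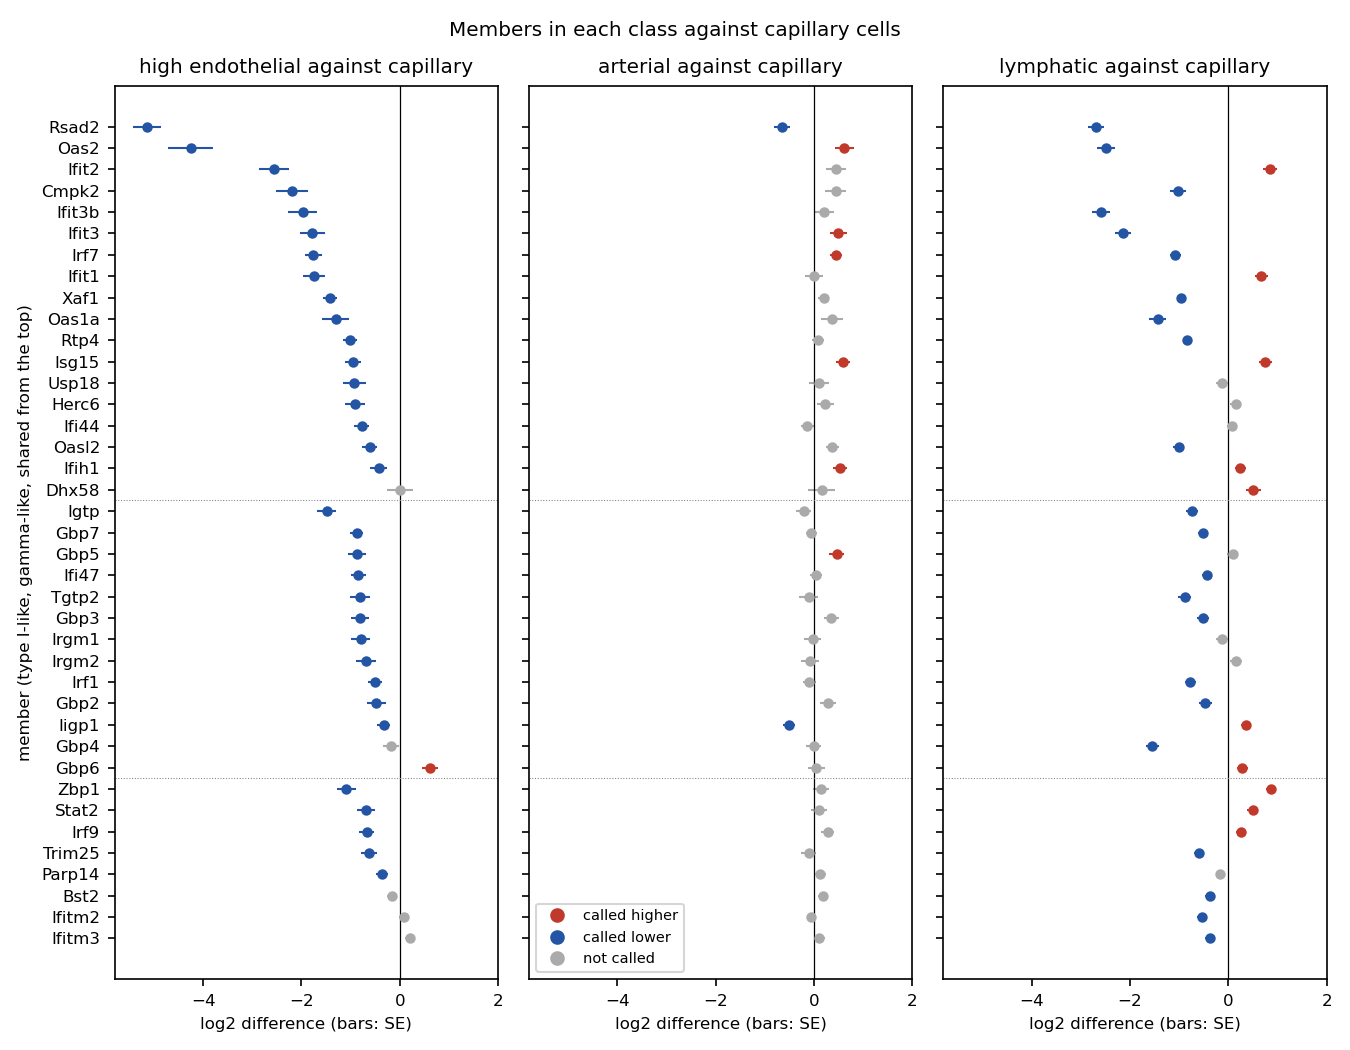
Log2 difference from capillary cells with its SE (horizontal axis) for each tested member (rows, by set) in high endothelial, arterial and lymphatic cells. Red points were called higher, blue points were called lower and grey points were not called. Rsad2 lies furthest left in high endothelial cells at -5.14; in lymphatic cells Ifit1, Ifit2, Isg15 and Zbp1 lie right of 0 and Rsad2, Ifit3 and Ifit3b left of it.

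Around the members, 13 of 14 dissociation response genes were lower in lymphatic cells (median -0.70), which was not tested for its part in these differences. Cxcl10, a chemokine induced by both kinds of interferon, ranged from 426 to 1052 CPM (median 509) in lymphatic against 22.1 to 102 CPM (median 48.0) in capillary cells and was higher by 3.43 ± 0.25, and Ifi27l2a was higher by 4.75 ± 0.17, while Ifi203 was lower at -3.45 ± 0.10. Of the signalling genes, Jak1 was higher by 1.74 ± 0.11, Irf8 by 3.4 ± 0.11, Socs1, a brake on Janus kinases, by 1.76 ± 0.13 and Tmem173 by 2.24 ± 0.10. Ifngr1 was lower at -0.88 ± 0.10, as was H2-Aa, an MHC class II chain, at -2.37 ± 0.16.

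Within the lymphatic class, 5 clusters stood at different levels of the type I-like members. They were a floor-like cluster of 1220 cells, a cluster of 592 cells marked by Marco, a ceiling-like cluster of 1000, a cluster of 367 marked by Ptx3 and a cluster of 546 led by Igfbp5 and Nts. As a mean over the 8 pools, each with the same weight, the type I-like members summed to 3130.1 CPM in the floor, 1686 in the Marco, 1526 in the Ptx3, 1029 in the ceiling and 999 in the Igfbp5 and Nts cluster. The floor cluster's lead lay mostly in Isg15, Ifit1 and Ifit2: the other 15 members summed to 967 CPM there, 872 in the Marco, 1078 in the Ptx3, 659.7 in the ceiling and 539 in the Igfbp5 and Nts cluster. Of the 18 pool means, 9 were highest in the floor and 6 in the Ptx3 cluster, the latter among them Irf7 (99.8 CPM in the floor and 165 in the Ptx3 cluster) and Ifi44 (134 and 274). This split depends on the weighting. With all cells of a cluster pooled, Rsad2 stood at 93.8 CPM in the floor and 124 in the Ptx3 cluster, and Oas1a at 9.60 and 13.2. By pool means both were highest in the floor. The gamma-like sum did not follow the order of the type I-like sum, with 1572 CPM in the floor, 1910.3 in the Marco, 1651 in the Ptx3, 1339 in the ceiling and 1012 in the Igfbp5 and Nts cluster. The floor cluster and the genes Isg15, Ifit1 and Ifit2 were singled out after their values were seen, so these levels are a description with no test.

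Isg15 ranged from 956 to 2294 CPM (median 1332) in the floor cluster. The highest pool was 924 CPM in the Marco, 788 in the Ptx3, 589 in the Igfbp5 and Nts and 444 in the ceiling cluster, all below the lowest floor pool. Ifit1 ranged from 213 to 706 CPM (median 294) in the floor cluster and from 0 to 367 CPM (median 109.6) in the Marco cluster, and it was higher in the floor cluster in 8 of 8 pools against each of the 4 others. Ifit2 ranged from 189 to 458 CPM (median 263) in the floor and 0 to 43.9 CPM (median 23.1) in the ceiling cluster. In the Marco cluster it ranged from 0 to 400 CPM (median 139). Its KO mesenteric pool of library 2 there was above the same pool of the floor cluster. Rsad2 was above the ceiling cluster in all 8 floor pools, but against the Ptx3 cluster it was higher in only 5 of 8. Gbp5 was higher in the floor than in the Marco, ceiling and Igfbp5 and Nts clusters in 8 of 8 pools, whereas Gbp4 was lower than in the Marco cluster in 7 of 8 and Iigp1 likewise. Ifit3b was higher there than in the Marco cluster in only 2 of 8 pools.

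**Figure D3:**
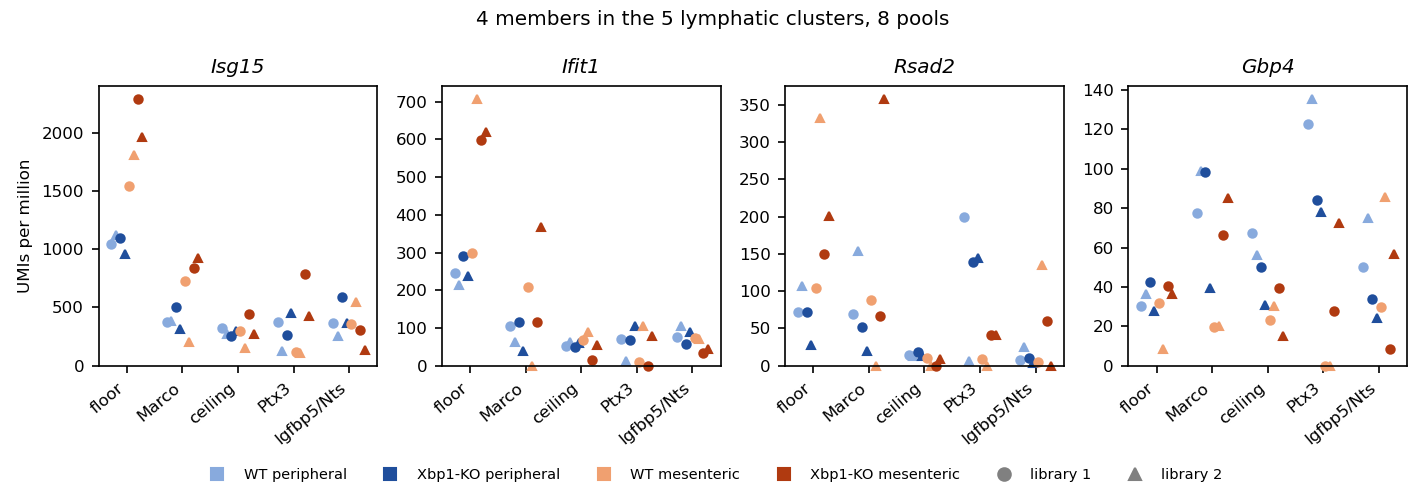
Level in UMIs for each 1000000 (CPM, vertical axis) of 4 members in the 5 lymphatic clusters, with 1 point per pool, coloured by pool and shaped by library. The floor cluster's lowest Isg15 pool (956 CPM) is above the highest pool of every other cluster (924 CPM).

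Counts per cell showed that the type I-like level was carried unevenly. Each cell was thinned to 2000 UMIs, which left out 1068 capillary, 244 arterial, 4 high endothelial and 106 lymphatic cells that were shallower. The mean of type I-like UMIs per thinned cell was 3.91 in capillary, 4.98 in arterial, 1.33 in high endothelial and 3.50 in lymphatic cells. Cells with at least 10 such UMIs made up 8.49% of capillary cells (95% exact binomial interval 7.48 to 9.60), 12.2% of arterial (9.54 to 15.3), 1.5% of high endothelial (0.551 to 3.23) and 9.84% of lymphatic cells (8.89 to 10.9). Without thinning the shares were 17.9% in capillary, 16.3% in high endothelial and 29.5% in lymphatic cells, whose median depths were 2640, 8312 and 5254 UMIs. Intervals cover counting error only.

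In the floor cluster the share was 18.9% (16.7 to 21.2), with 48.0% unthinned, against 8.90% in the Marco, 7.28% in the Ptx3, 5.11% in the Igfbp5 and Nts and 2.63% in the ceiling cluster. The mesenteric floor pools stood highest: 25 of 57 KO cells (43.9%) in library 1, 31 of 95 (32.6%) in library 2, and 6 of 18 WT cells (33.3%) in library 2. The WT mesenteric pool of library 1 stood at 18.5% and the 4 peripheral pools at 10.5% to 17.1%. The 5% of cells with most type I-like UMIs held 22.8% of those UMIs in capillary and 27.9% in lymphatic cells. Across thinned cells, type I-like and gamma-like UMIs went together: Pearson's r was 0.44 over 2755 capillary, 0.61 over arterial, 0.34 over high endothelial and 0.32 over lymphatic cells. These points share pools, libraries and a fixed depth, and the values are a description. Capillary cells with at least 10 type I-like UMIs held 6.70 gamma-like UMIs on average, and those with 0 held 1.85; in lymphatic cells the means were 5.47 and 2.10.

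**Figure D4:**
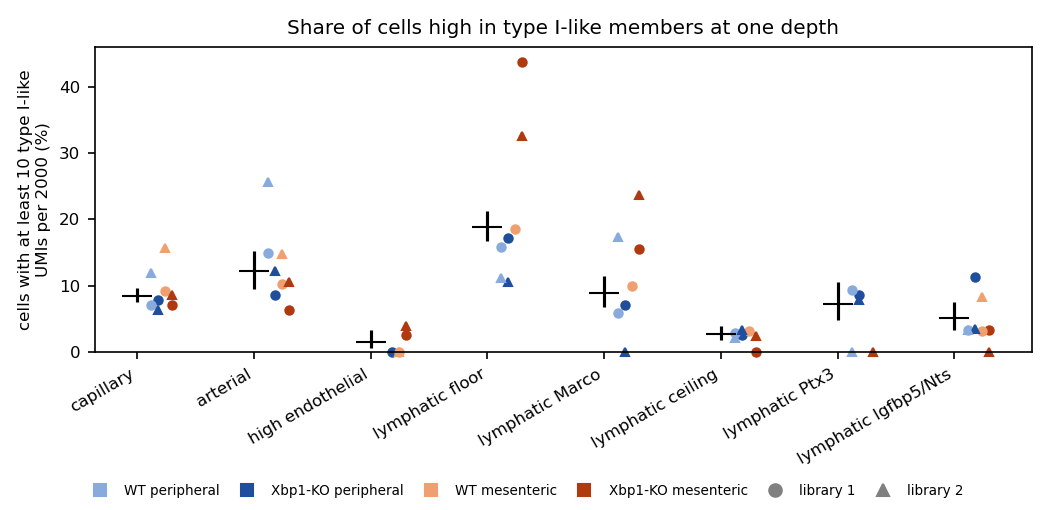
Percentage of cells with at least 10 type I-like UMIs after thinning to 2000 UMIs (vertical axis) in 3 blood endothelial classes and the 5 lymphatic clusters; bars on the black marks are 95% exact binomial intervals over all cells and points are single pools. The floor cluster stands at 18.9%, with mesenteric pools at 43.9%, 33.3%, 32.6% and 18.5% and peripheral pools at 10.5% to 17.1%. Pools with too few cells at that depth are not drawn. Among them are the floor pool at 33.3% (18 cells) and the peripheral high endothelial pools of 9, 7 and 3 cells.

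Between tissues, a group of type I-like members was higher in mesenteric than in peripheral lymphatic cells. The comparison used edgeR's quasi-likelihood test on the 4 groups of tissue and genotype, averaged over genotypes. Of 39 members 5 were higher and 0 lower, where 4.79% of 10681 genes were called (2.88% higher and 1.91% lower). In the order library 1 WT, library 1 KO, library 2 WT, library 2 KO, Isg15 stood at 583, 613, 456 and 552 CPM in the peripheral and 843, 1160.2, 744 and 1088 CPM in the mesenteric pools. No peripheral pool reached a mesenteric one, and the difference was 0.86 ± 0.12 (adjusted p = 0.00103). Ifit1 stood at 131, 148, 95.2 and 128 CPM in the peripheral and 179, 231, 244 and 344 CPM in the mesenteric pools, again without overlap (1.04 ± 0.16, adjusted p = 0.00204). Both genes were thus higher in all 4 mesenteric pools and in each library. The mix of lymphatic clusters moved with tissue as well. In the same order, floor cells made up 31.8%, 33.0%, 22.3% and 32.5% of the peripheral and 35.0%, 33.9%, 27.7% and 42.8% of the mesenteric lymphatic cells, and ceiling cells 26.4%, 30.0%, 41.3% and 27.9% against 20.3%, 14.04%, 21.5% and 18.5%. The Igfbp5 and Nts cluster, with the lowest type I-like sum, made up 15.3%, 9.18%, 14.5% and 17.8% of the peripheral cells. Its mesenteric shares were 23.2%, 19.3%, 36.9% and 11.3%, lower only in the KO pair of library 2. The floor share was higher and the ceiling share lower in mesenteric nodes in all 4 pairs, and the levels of both genes were highest in floor cells. A class value thus holds the mix, whose parts moved in different directions, and the level within clusters together.

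Rsad2 stood at 64.8, 54.9, 49.6 and 32.9 CPM in peripheral and 60.2, 80.0, 136 and 153 CPM in mesenteric pools. The tissues overlapped in library 1 and were far apart in library 2; the difference was 1.04 ± 0.25 (adjusted p = 0.0290), and without library 2 it was 0.25, adjusted p 0.444. Oasl2, an oligoadenylate synthetase-like protein, was higher by 0.62 ± 0.16 (adjusted p = 0.0382); its pools overlapped, and the call was lost without library 1 (0.70, adjusted p 0.219), without library 2 (0.63, adjusted p 0.0754) and with totals scaling (0.54, adjusted p 0.0742). Ifitm2, a membrane protein that restricts viral entry, was higher by 0.53 ± 0.12 (adjusted p = 0.0212), and without library 1 at 0.50, adjusted p 0.488. DESeq2 did not call Rsad2 (adjusted p = 0.104) or Oasl2 (adjusted p = 0.116). In a fit with library as a block, 13 members were called, where 12.7% of genes were (7.62% higher and 5.09% lower): the 5 above, Ifit2 (0.57 ± 0.11), Oas1a (1.20 ± 0.32), Bst2 and Ifitm3 higher, and Gbp3 (-0.53 ± 0.13), Gbp4 (-0.56 ± 0.16), Gbp6 and Irgm2 lower. The gamma-like members leaned the other way, with 12 of 13 estimates below 0 and a median of -0.15, against 0.23 for the type I-like. Gbp3 stood at 68.7, 55.2, 72.1 and 64.9 CPM in peripheral and 32.5, 43.4, 49.3 and 53.7 CPM in mesenteric pools, without overlap.

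Beside these members, Cxcl10 was higher in mesenteric lymphatic cells by 0.83 ± 0.14, and 6 dissociation response genes were lower and 1 higher of 14 (Zfp36 -0.93 ± 0.14, Junb -0.65 ± 0.10), whose part was not tested. Totals scaling turned the split of all genes from 308 higher and 204 lower to 188 and 323, and gave 4 members higher and 1 lower.

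The clusters were also compared between tissues one by one, a step chosen after the values above were seen. Within a cluster the mix named above does not enter. In the floor cluster 12 of 38 members were higher in mesenteric nodes and 0 lower, where 12.7% of genes were called (7.81% higher and 4.93% lower); they included 8 type I-like members. Oas1a was higher by 1.79 ± 0.48, Rsad2 by 1.48 ± 0.25, Ifit1 by 1.25 ± 0.19, Oasl2 by 1.15 ± 0.19, Isg15 by 1.01 ± 0.13, Ifit3 by 0.82 ± 0.27, Ifitm2 by 0.68 ± 0.15 and Irf7 by 0.67 ± 0.17. Isg15 stood at 1045, 1097, 1119 and 956 CPM in the peripheral and 1544, 2294, 1813 and 1966 CPM in the mesenteric floor pools, and Ifit1 at 247, 290.3, 213 and 237 and 298, 597, 706 and 621 CPM. Both genes were highest in mesenteric pools, and neither overlapped. The WT mesenteric sum of library 2 rested on 18 cells, and without library 1 only 4 members were called. When the floor cluster was left out of the lymphatic class, 1 member was called; Ifit1 then stood at 0.61, adjusted p 0.180 and Isg15 at 0.55, adjusted p 0.0716.

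In the Marco cluster, 5 of 34 members were called (4.88% of genes, 2.22% higher and 2.66% lower): Ifit1 (1.13 ± 0.30) and Isg15 (0.81 ± 0.20) were higher in mesenteric nodes, and Zbp1 (-1.37 ± 0.26), Gbp4 (-1.09 ± 0.29) and Ifi44 (-0.70 ± 0.19) lower. The WT mesenteric sum of library 2 held 6 cells and stood below its peripheral partner for both higher genes, with Ifit1 at 0 against 61.7 CPM and Isg15 at 202 against 383 CPM. In the KO pair of library 1 Ifit1 stood at 115 CPM in both tissues, so its mesenteric pool was higher in 2 of 4 pairs, and that of Isg15 in 3 of 4. Without library 1 none of the 5 was called, with Gbp4 at 0.22, and 6 members were called without library 2. In the ceiling cluster Ifitm2 (0.70 ± 0.14) and Ifitm3 (0.51 ± 0.13) were higher, 2 of 34 where 1.99% of genes were called (1.06% higher and 0.922% lower); without library 1 the count was 0, without library 2 it was 6, and 5 in the library block fit. In the Ptx3 cluster 6 of 31 were lower in mesenteric nodes (3.29% of genes, 1.05% higher and 2.24% lower), namely Gbp4, Rsad2, Gbp2, Gbp3, Igtp and Irgm2. Gbp4 stood at 123, 84.3, 135 and 78.2 CPM in the peripheral and 0, 27.6, 0 and 72.4 CPM in the mesenteric pools; both WT mesenteric pools were at 0, so its fitted fold is not given. Rsad2 and Gbp2 each held 1 UMI in the WT mesenteric pool of library 1 and 0 in that of library 2. Rsad2 also held only 1 UMI in the WT peripheral pool of library 2. The fitted folds of both genes are therefore not given either. The WT mesenteric sum of library 2 held 3 cells, and no member was called without library 1 or without library 2. In the Igfbp5 and Nts cluster edgeR and DESeq2 called 0 of 27 (0.718% of genes; 2 at an unadjusted p under 0.05), and 25 of 27 estimates were below 0; without library 2, 1 member was called. DESeq2 called 0 members in the Marco and Ptx3 clusters.

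In capillary cells edgeR called 0 of 39 members between tissues, where 1.49% of 9647 genes were called; 7 members had an unadjusted p under 0.05, and DESeq2 called 0. The 4 members with the smallest p had estimates above 0, that is toward mesenteric cells: Gbp4 at 0.41 ± 0.14, Gbp3 at 0.41 ± 0.16, Irgm2, a regulator of the immunity-related GTPases, at 0.42 ± 0.17 and Xaf1, a gene of interferon-induced cell death, at 0.37 ± 0.15. Gbp4 stood at 99.99, 105, 134 and 92.9 CPM in peripheral and 137, 145, 145 and 140.4 CPM in mesenteric capillary pools, and Gbp3 at 63.1, 59.5, 66.4 and 49.7 and 69.4, 80.8, 101 and 72.8 CPM. Neither gene's tissues overlapped, nor did those of Irf9, Stat2 and Trim25. How many of all genes had no overlap is not given here. The mix of capillary clusters differed strongly between the tissues. The cluster led by Penk made up 31.2% to 44.7% of the capillary cells in the peripheral and 4.43% to 6.72% in the mesenteric pools, and that led by Srarp 7.67% to 12.6% and 46.8% to 69.5%. Gbp3 was lowest in the Penk cluster in both tissues, with 45.2 ± 6.65 and 44.3 ± 34.7 CPM in peripheral and mesenteric pools (mean ± SD, n = 4 each). In the same order it stood at 58.9 ± 7.71 and 87.7 ± 29.8 CPM in the cluster led by Aqp1, 80.4 ± 28.7 and 83.6 ± 13.0 CPM in the Srarp and 91.4 ± 45.1 and 70.1 ± 6.98 CPM in the Aqp7 cluster. Gbp4 stood at 90.6 ± 24.8 and 165 ± 75.4 CPM in the Penk, 124 ± 15.2 and 132 ± 27.8 CPM in the Aqp1, 90.0 ± 6.62 and 148 ± 14.3 CPM in the Srarp and 127 ± 28.6 and 113 ± 26.5 CPM in the Aqp7 cluster, so no cluster was lowest in both tissues. In fits added after this was seen, the tissue difference of Gbp4 was 0.23, adjusted p 0.717 without the Penk cluster and 0.034, adjusted p 0.991 within the Aqp1 cluster, and that of Gbp3 0.23, adjusted p 0.821 and 0.44, adjusted p 0.658. Xaf1 was then at 0.22, adjusted p 0.787 and 0.13, adjusted p 0.942. Irgm2 kept about its size in the same fits, at 0.49, adjusted p 0.345 and 0.37, adjusted p 0.767. The median of the gamma-like members was 0.23 without the Penk cluster and 0.020 within the Aqp1 cluster. Estimates were above 0 for 34 of 39 members and 12 of 13 gamma-like ones (median 0.26). In a fit with library as a block, 2 members were called, Xaf1 (0.36 ± 0.10) and Gbp4 (0.42 ± 0.10), where 5.03% of genes were, and leaving out either library gave 1. Of the dissociation response, Hspa1a and Hspa1b, which encode heat shock proteins, were higher in mesenteric capillary cells by 1.78 ± 0.34 and 1.83 ± 0.39; their part was not tested.

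A direct test of the tissue difference in lymphatic against that in capillary cells, added after both were seen, called 7 of 39 members, where 3.93% of 11061 genes were called (2.68% higher and 1.26% lower). The difference was larger in lymphatic cells for Rsad2 (0.90 ± 0.23, adjusted p = 0.0140), Ifit1 (0.72 ± 0.21, adjusted p = 0.0411) and Isg15 (0.65 ± 0.16, adjusted p = 0.0107). It was smaller for Gbp4 (-0.90 ± 0.19), Gbp3 (-0.84 ± 0.19), Irgm2 (-0.84 ± 0.19) and Stat2 (-0.59 ± 0.17), with adjusted p between 0.00252 and 0.0335. All 13 gamma-like estimates were below 0. The cluster mix of both classes enters this test. When the floor cluster was set against the Aqp1 cluster, 7 members were called, and the difference stood at 0.87, adjusted p 0.000540 for Isg15, 1.18, adjusted p 0.00248 for Ifit1 and 1.001, adjusted p 0.0147 for Rsad2. The 4 smaller ones were not called in that fit, with Gbp4 at 0.080, adjusted p 0.939, Gbp3 at -0.61, adjusted p 0.260, Irgm2 at -0.68, adjusted p 0.180 and Stat2 at -0.50, adjusted p 0.330, and the gamma-like median was -0.073. Without the Penk cluster 5 were called; Rsad2 was then at 0.39, adjusted p 0.395 and Stat2 at -0.53, adjusted p 0.0913. Leaving out either library gave 5 called members. Without library 2 Rsad2 stood at 0.10, adjusted p 0.874, Ifit1 at 0.048, adjusted p 0.955, Isg15 at 0.39, adjusted p 0.197 and Stat2 at -0.63, adjusted p 0.0814. Without library 1 Gbp4 stood at -0.45, adjusted p 0.735, Gbp3 at -0.87, adjusted p 0.207, Irgm2 at -0.74, adjusted p 0.459 and Stat2 at -0.59, adjusted p 0.570. DESeq2 called 3. Scaling by totals alone gave 2 members larger and 6 smaller, with Ifit1 at 0.62, adjusted p 0.125, and turned the split of all genes from 296 larger and 139 smaller to 199 and 210.

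**Figure D5:**
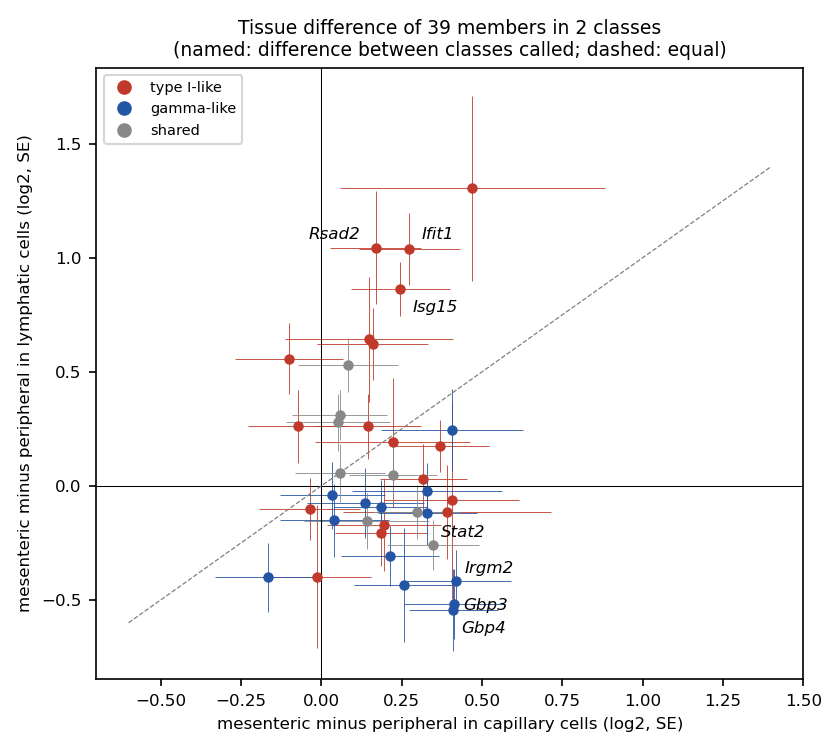
Mesenteric minus peripheral log2 difference of each member in capillary (horizontal axis) and lymphatic cells (vertical axis), with SE bars, coloured by set; the dashed line marks equal differences and the 7 members called between the classes are named. Rsad2, Ifit1 and Isg15 lie above the line and Gbp3, Gbp4, Irgm2 and Stat2 below it.

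In high endothelial cells edgeR called 0 of 31 members between tissues (0.296% of 5751 genes; 6 at an unadjusted p under 0.05), and DESeq2 called 0. The smallest p values belonged to Isg15, Ifit1, Ifit3 and Gbp4; Isg15 was at 1.42 ± 0.43, and stood at 103, 68.7, 14.8 and 303 CPM in peripheral and 139.7, 227, 178 and 257 CPM in mesenteric pools. Ifit1 was listed at 25.9, 0, 0 and 0 CPM in the peripheral pools, whose sums of 3 to 29 cells limit what could be detected; with the ratio rule for tags its estimate turned to -0.17. In arterial cells edgeR called 0 of 38 (0.396% of 5048 genes; 2 at an unadjusted p under 0.05) and DESeq2 0. Cmpk2 (-0.66 ± 0.25), Rsad2 (-0.41 ± 0.19), Oas1a (0.94 ± 0.45) and Ifit3 (-0.67 ± 0.36) had the smallest p, and in the library block fit Ifit3 was called lower (-0.76 ± 0.19, where 2.44% of genes were called). The estimate of Rsad2 turned to 0.35 with the ratio rule and to 0.91 with members kept in the clustering.

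The study's main comparison set Xbp1-KO against WT cells. XBP1 is a transcription factor that acts when unfolded proteins build up in the endoplasmic reticulum. Its level stood at 140, 206, 129 and 260 CPM in the WT pools and at 65.9, 132, 79.1 and 141 CPM in the KO pools, in the order library 1 peripheral and mesenteric, then library 2. KO pools were lower than their WT partners in all 4 pairs, and reads remained in each. The 3′ counts may lie outside the deleted part, which the labels used here do not give. The log2 difference was -0.77 ± 0.15 in capillary, -0.42 ± 0.35 in high endothelial, -0.80 ± 0.26 in arterial and -1.03 ± 0.16 in lymphatic cells, and edgeR called none (lowest adjusted p = 0.186).

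No member passed the test between genotypes in any class. edgeR called 0 of 39 members in capillary (0% of genes), 0 of 31 in high endothelial (0.0348%), 0 of 38 in arterial (0%) and 0 of 39 in lymphatic cells (0%), and DESeq2 called 0 in each. At an unadjusted p under 0.05 there were 0, 3, 2 and 8 members. In capillary cells the smallest p values belonged to Ifi44 (-0.28 ± 0.14), Rtp4, a receptor transporter protein (0.25 ± 0.14), Cmpk2 (-0.27 ± 0.17) and Zbp1 (-0.31 ± 0.19). In high endothelial cells they were Irf1 (1.04 ± 0.38), Isg15 (0.92 ± 0.45), Stat2 and Irgm1. In arterial cells Bst2 was at -0.37 ± 0.15, Usp18, which removes ISG15 from proteins, at -0.92 ± 0.42, Irf7 at -0.51 ± 0.25 and Ifit3 at -0.65 ± 0.36.

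In lymphatic cells Ifit2 came first, at 0.58 ± 0.16 (adjusted p = 0.524). It stood at 108, 141, 83.6 and 96.3 CPM in the WT pools, in the order library 1 peripheral and mesenteric, then library 2, and at 166, 199, 104 and 212 CPM in the KO pools. KO was higher in all 4 pairs of the same tissue and library, while the ranges of the genotypes overlapped across tissues and libraries. The floor share was higher in the KO pool in 3 of these 4 pairs and lower in library 1 mesenteric, at 33.0% against 31.8%, 33.9% against 35.0%, 32.5% against 22.3% and 42.8% against 27.7%. Within the floor cluster Ifit2 stood at 217, 244, 189 and 281 CPM in the WT and 344, 458, 219 and 314 CPM in the KO pools, again higher in KO in each pair. Isg15 followed at 0.30 ± 0.12, Trim25, a ubiquitin ligase of RNA sensing, at 0.29 ± 0.12 and Zbp1 at -0.28 ± 0.12. KO was also higher in 4 of 4 pairs for Ifit1, Isg15, Herc6, Stat2 and Parp14. None of these was called, and the share of all genes with that pattern is not given here. In the library block fit Ifit2 was called in lymphatic cells (0.62 ± 0.11, adjusted p = 0.00592, where 0.805% of genes were called), and Bst2 (-0.37 ± 0.079) and Ifitm3 (-0.29 ± 0.070) were called lower in arterial cells, where 0.416% of genes were. Beside these values, estimates of the dissociation response were above 0 in KO cells for 14 of 14 genes in capillary (median 0.49), 14 of 14 in arterial and 13 of 14 in lymphatic cells, with none called; their part was not tested.

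The KO difference was also compared between tissues. edgeR called 0 members in capillary (0% of genes), high endothelial (0%), arterial (0.0594%) and lymphatic cells (0%), with 1, 1, 3 and 7 members at an unadjusted p under 0.05, and DESeq2 called 0. In lymphatic cells 15 of 18 type I-like estimates were above 0, with a median of 0.29, and 14 of 14 dissociation response estimates were too, with a median of 0.74. Whether the KO difference depended on the library gave 0 called members in capillary (0.0933% of genes), high endothelial (0.556%), arterial (0.0396%) and lymphatic cells (0.103%); 3, 0, 4 and 2 members had an unadjusted p under 0.05 and DESeq2 called 0. The last comparison carries the Xist difference named above, from which it cannot be told apart.

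The 2 libraries differed in some members. In capillary cells 10 of 39 were called, where 14% of genes were (7.11% higher and 6.84% lower): Oas1a (1.33 ± 0.19), Ifit3 (0.81 ± 0.10), Irgm1 (0.69 ± 0.11), Ifit3b (0.65 ± 0.14), Gbp5, Irf1 and Ifi47 were higher in library 2, and Bst2 (-0.37 ± 0.051), Ifitm2 (-0.34 ± 0.049) and Ifitm3 (-0.29 ± 0.041) lower. In arterial cells 7 of 38 were called (7.55% of genes, 4.08% higher and 3.47% lower), with Ifit3b (1.26 ± 0.28), Ifit3 (1.22 ± 0.18), Gbp5, Irf7 and Irf1 higher and Ifitm2 and Ifitm3 lower. Arterial Ifit3 stood at 142, 105, 79.7 and 37.4 CPM in library 1 and 344, 186, 211 and 135 CPM in library 2, in the order WT peripheral, KO peripheral, WT mesenteric and KO mesenteric. In lymphatic cells only Gbp5 was called (0.47 ± 0.11, where 3.24% of genes were, 2.08% higher and 1.16% lower), and it was not by DESeq2. In high endothelial cells edgeR called 0 of 31 (0.661% of genes; 3 at an unadjusted p under 0.05) and DESeq2 0. DESeq2 called 4 in capillary and 1 in arterial cells. Of the 14 dissociation response genes, 5 in capillary and 9 in arterial cells were higher in library 2 (Hspa1b 1.32 ± 0.10 and 1.53 ± 0.10), and their part was not tested.

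Of the interferon genes themselves, only Ifnb1, which encodes interferon beta, was counted in more than a few cells. Its 87 UMIs lay in 26 of 9275 cells, 22 of them among the 1220 cells of the floor cluster (1.80%, 95% exact binomial interval 1.13 to 2.72) and 4 among the 592 of the Marco cluster. It was found in 0 of 5550 cells outside the lymphatic class, which allows a share of cells with a UMI of up to 0.0541%. The floor cells with Ifnb1 came from 6 of the 8 pools, and a single cell held up to 13 UMIs. Summed over those 22 cells, the type I-like members stood at 5654 CPM and the gamma-like at 2100 CPM, against 2694 and 1568 CPM in the other 1198 floor cells; the median depths were 5649 and 5326 UMIs. No Ifna gene had a UMI, Ifnz had 7 UMIs and Ifng, which encodes interferon gamma, had 5 UMIs in 2 cells. The receptors were counted in every class, with median levels of Ifnar1 of 84.2 CPM in capillary, 108 in arterial, 52.0 in high endothelial and 58.9 in lymphatic cells, and of Ifngr1 of 267, 241, 142 and 167 CPM.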

How the data were processed

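The values are counts of unique molecular identifiers (UMIs) per gene and cell barcode, as the authors deposited them, with 4 rows of hashtag counts beside the genes. Per the file headers they come from Cell Ranger 6.0.1 (6.1 per the submitters' processing notes, with mm10), and per the labels' protocols cells were digested, depleted of CD45+ cells and sorted. The labels name a v2 kit and the series' design text a v3 3′ chemistry. Whether intronic reads were counted is not given in the sources used here.

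Library 1 held 7709 barcodes and 33024170 gene UMIs, library 2 held 2903 and 14744778, and 3 barcodes occurred in both. Tags were called with HTODemux (Seurat 5.3.0, R 4.3.3, positive quantile 0.99), which gave 6786 and 2690 single-tag barcodes; barcodes with several tags (685 and 130) or none (238 and 83) were left out. Scrublet (scanpy 1.11.5, Python 3.11.15) marked 65 and 4 of the single-tag barcodes, which were removed. It marked 0.149% of those of library 2, and only 25.5% and 4.62% of the barcodes with several tags, so doublets within a pool may remain. Cells needed 500 genes and at most 10% mitochondrial UMIs, which left 9275. Clusters (Leiden, resolution 1, 30 components, 15 neighbours, igraph 0.11.9) were built from 2000 variable genes less the members, the pathway lists and Xbp1, and named from marker genes. Clusters with Prox1 in at least 25% of cells could be named only lymphatic or dividing, and a lymphatic subset name needed 3 detected subset markers with at least 1 among the 10 leading genes; both rules were set after the clusters were seen, so names may differ from those of the study.

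Counts of each pool's cells of a class were summed within a library and tested with edgeR 4.0.16 (TMM factors, filterByExpr, quasi-likelihood test, Benjamini-Hochberg adjustment over all genes tested). Class comparisons had the pool as a block; tissue and genotype comparisons used 4 groups with no library term, with 2 pools each. Library numbers mark a shared capture and so pair the pools: library differences correlated between groups at 0.132 to 0.366 in capillary, -0.0108 to 0.158 in high endothelial, 0.128 to 0.236 in arterial and 0.0406 to 0.221 in lymphatic cells (6 pairs each), and a fit with the library as a block was run beside the main one. DESeq2 1.42.0, RLE factors, no filter, thinned sums, another tag rule (3-fold ratio), resolution 0.5, members kept in the clustering and each library left out were alternatives; scaling by totals, leaving out the floor or the Penk cluster, single clusters and 6 comparisons (tissue within the 5 lymphatic clusters and between classes) were added after the data were seen. The tests were also run on simulated data, and the outcome of that check is not given here.

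The members and lists were chosen with earlier results of these data known. In each comparison called members were named, at most 8 in each direction by size, or the 4 with the smallest p where none passed; of each pathway list the 2 with the smallest p among those called. Isg15 in high endothelial cells and genes given without a call were named after their values were seen. Promoters came from RefSeq (GRCm38.p6).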

Additional observations from a re-analysis of the deposited data

Results flagged for a closer look

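The tissue difference, mesenteric minus peripheral on the log2 scale, differed between lymphatic and capillary cells for 7 members by edgeR's quasi-likelihood test of the difference itself, a test that was added after both tissue comparisons had been seen. It was larger in lymphatic cells for Rsad2 (0.90), Ifit1 (0.72) and Isg15 (0.65), all type I-like. It was smaller for Gbp4 (-0.90), Gbp3 (-0.84), Irgm2 (-0.84) and Stat2 (-0.59). Without library 2, Rsad2 (0.10), Ifit1 (0.048), Isg15 (0.39) and Stat2 (-0.63) were not called, and without library 1 Gbp4 (-0.45), Gbp3 (-0.87), Irgm2 (-0.74) and Stat2 (-0.59) were not, so some lost calls kept about their size. With scaling by totals alone Ifit1 was not called (0.62, adjusted p 0.125). With the floor set against the Aqp1 capillary cluster, Rsad2 (1.001), Ifit1 (1.18) and Isg15 (0.87) were called and the 4 smaller ones were not, with Gbp4 at 0.080, Gbp3 at -0.61, Irgm2 at -0.68 and Stat2 at -0.50. The mix of capillary clusters moved with tissue: the Penk cluster made up at least 31.2% of peripheral and at most 6.72% of mesenteric capillary cells, and the part of this mix in each of the 4 was not tested further. Beside them, Cxcl10 was larger by 1.80 ± 0.25 and, of the dissociation response, Hspa1b was smaller (-1.26 ± 0.15) and Ier3 larger (0.84 ± 0.19); the part of that response was not tested.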

How the results depend on the processing

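Over the alternatives, 1370 values of named members were recomputed: 1212 kept their direction and side of the threshold, 133 lost and 13 gained a call, and 12 reversed. The cause of these changes was not tested, except that thinning to the smallest sum left only 6 members tested between classes, of which 2, 1 and 2 were called in high endothelial, arterial and lymphatic against capillary cells. Counts of called members moved as follows. Arterial against capillary gave 5 with the ratio rule for tags and 3 with members kept in the clustering. Tissue in lymphatic cells gave 12 with no filter, 13 with the replicate block (library) and 1 without the floor cluster. With the replicate block, tissue gave 2 members in capillary and 1 in arterial cells and 5 in the ceiling cluster, and genotype gave 2 in arterial and 1 in lymphatic cells; the pairing block moved no other count of these comparisons by over 1.5 times. With no filter, genotype in lymphatic cells gave 1, library by genotype in capillary cells 1, library in lymphatic cells 2 and tissue in the ceiling cluster 4. DESeq2 gave 4 in capillary, 1 in arterial and 0 in lymphatic cells between libraries, 0 for tissue in the Marco and Ptx3 clusters, 1 in the ceiling cluster and 3 for the tissue difference between classes. RLE factors gave 1 for tissue in the ceiling cluster. In high endothelial cells tissue gave 1 at resolution 0.5, and library gave 1 with RLE factors, 4 with the ratio rule and 2 with members kept. Library in lymphatic cells gave 0 on thinned sums.

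Leaving out a library gave 1 to 4 members for arterial against capillary, 25 to 25 for high endothelial and 22 to 29 for lymphatic against capillary, 1 to 1 for tissue in capillary and 5 to 9 in lymphatic cells, 4 to 12 in the floor, 0 to 6 in the Marco, 0 to 6 in the ceiling, 0 to 0 in the Ptx3 and 0 to 1 in the Igfbp5 and Nts cluster, and 5 to 5 for the difference between classes; with 1 pool per group, each lone pool is assumed to vary like the others.

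Reversed estimates, none of them called, were Ifit3 in arterial against capillary with members kept (-0.17); Cmpk2 by genotype in capillary cells without library 1 (0.056, and -0.46 without library 2); Ifit1 by tissue (-0.17), Stat2 by genotype (-0.10) and Stat2 for the genotype difference between tissues (0.59) in high endothelial cells with the ratio rule; Stat2 by genotype there without library 2 (-0.18, and 0.71 without library 1); Rsad2 by tissue in arterial cells with the ratio rule (0.35) and with members kept (0.91); Ifit2 for the genotype difference between tissues in arterial cells with members kept (-0.23); Dhx58 for library by genotype in lymphatic cells on thinned sums (-0.21); Gbp4 for the tissue difference between classes with the floor and Aqp1 clusters only (0.080); and Gbp4 by tissue in the Marco cluster without library 1 (0.22, and -1.15 without library 2). The genotype difference between tissues had no residual degrees of freedom with a library left out, library comparisons need both libraries, and fits restricted to sums of at least 20 cells could not be made for high endothelial cells within a class. Depth limits the high endothelial class most, where 4 pools held 3 to 29 cells.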
